A study of Mustela putorius furo and Mus musculus with 4 samples.

Results

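Cyclins, cyclin-dependent kinases (CDKs) and CDK inhibitors were compared between cultured ferret and mouse astrocytes. They were chosen by gene symbol, as cyclins A to L, O, T and Y, numbered CDKs, and the INK4 and CIP/KIP inhibitors, wherever the same symbol stood in the values of both species without regard to case. Of 51 such symbols found in either species, 43 were present in both, out of 13373 symbols that the species shared. Each of the 43 had a single value per library. The ferret group was 2 libraries of primary astrocytes from the cerebral cortex of postnatal day 1 sable ferrets, and the mouse group was 2 libraries of primary astrocytes from the cortex of ICR mice on postnatal days 1 to 3. Both were grown as mixed glia for 14 days in medium with 10% fetal bovine serum, shaken to remove microglia and oligodendrocytes, and replated. The replated cells were kept with serum until day 3, and their RNA was taken on day 7 from a serum-free medium that contained heparin-binding EGF-like growth factor in both groups. The cells of several mouse pups were pooled in a flask, whereas those of a ferret pup were spread over several flasks. The sources used here do not say whether the duplicate libraries came from separate cultures, so p-values measure the spread between these libraries, which may be technical.

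Values are FPKM, the fragments per kilobase of exon, which the authors scaled to each library's mapped fragments, and a mean level of 1 was used as the lower limit for testing. FPKM alone does not give the number of reads behind a value, and read counts were not used here. Species, culture and genome annotation cannot be told apart in this design, and ferret and mouse genes were measured on gene models whose lengths may differ. Positions given below are those of the mouse genes in GENCODE on GRCm38, the mouse build of the study.

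Progress through the cell cycle is driven by CDKs, which are active only when bound to a cyclin. D-type cyclins with CDK4 or CDK6 respond to mitogens and phosphorylate the retinoblastoma protein, which releases E2F transcription factors. Cyclin E with CDK2 then starts DNA replication, cyclin A acts through S phase and G2, and cyclin B with CDK1 drives mitosis. INK4 proteins block CDK4 and CDK6, and CIP/KIP proteins act mainly on CDK2 complexes. Several other cyclins and CDKs act in transcription and not in the cell cycle. Astrocytes of the postnatal cortex divide locally, and cultured neonatal astrocytes divide in response to serum or growth factors. The study compared the proliferation of both species by labelling cells in cultures with serum, whereas the RNA described here came from cultures without serum. It also compared dividing astrocytes between the species in sections of postnatal and adult brains.

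With FPKM as deposited, the share of members called higher in ferret astrocytes was below that of all tested genes, and the share called lower was alike. After rescaling and after quantile normalization, described below, both shares of the members were below those of all tested genes. These differences in share were not tested. Of the 43, 40 had a mean of at least 1 FPKM in at least one species and were tested, among 10204 genes, with limma on log2(FPKM + 1). A call needed both an adjusted p (Benjamini-Hochberg) under 0.05 and an absolute log2 difference above 1. An exact permutation of 2 libraries against 2 cannot reach 0.05 for a single gene. By this rule 3 of the 40 were higher in ferret astrocytes (7.5%, against 13.1% of all tested genes) and 12 were lower (30%, against 30.1% of all tested genes). All 40, with the other 25 included, passed the adjusted p of limma alone, as did 88.6% of all tested genes in either direction. All 40 had libraries that did not overlap between the species, as did 94.1% of all tested genes. The median log2 difference, ferret minus mouse, was -0.55 over the 40 members and -0.35 over all tested genes. Duplicates of the members lay close together, with a median absolute log2 difference of 0.086 in ferret and 0.053 in mouse astrocytes. Ccna1, Cdk3 and Cdk15 were below the limit, with ferret means of 0.299, 0.993 and 0.384 FPKM and mouse means of 0.072, 0.113 and 0.161 FPKM.

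The level of the shared genes differed between the species and changed some of these calls. Summed over the shared symbols, FPKM came to 227391 and 236543 in ferret and to 300465 and 308121 in mouse astrocytes. With each library rescaled to the mean of the 4 sums, the median difference of all tested genes moved to -0.01 and that of the members to -0.18. Then 5 members were higher (12.5%, against 19.1% of all tested genes) and 6 were lower (15%, against 21.7% of all tested genes). After quantile normalization of the 4 libraries 6 members were higher and 5 lower, each against 20.4% of all tested genes. The members took a like share of the shared total in both species, 0.468% and 0.481% in ferret and 0.493% and 0.483% in mouse astrocytes. With FPKM as deposited, after rescaling and after quantile normalization, Ccnb3, Cdk6 and Cdk20 were called higher, and Ccnh, Ccno, Cdk1, Cdk5 and Cdkn2a were called lower. Ccnb3, Ccno and Ccne2 had a mean of at least 1 FPKM in one species alone, so that passing the filter already required a difference, and their calls are no separate evidence of one. Without these 3 genes, 2 of 37 members were called higher and 10 lower as deposited. For the other members, the values after rescaling are given beside those as deposited where the call or the direction changed.

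**Figure D1:**
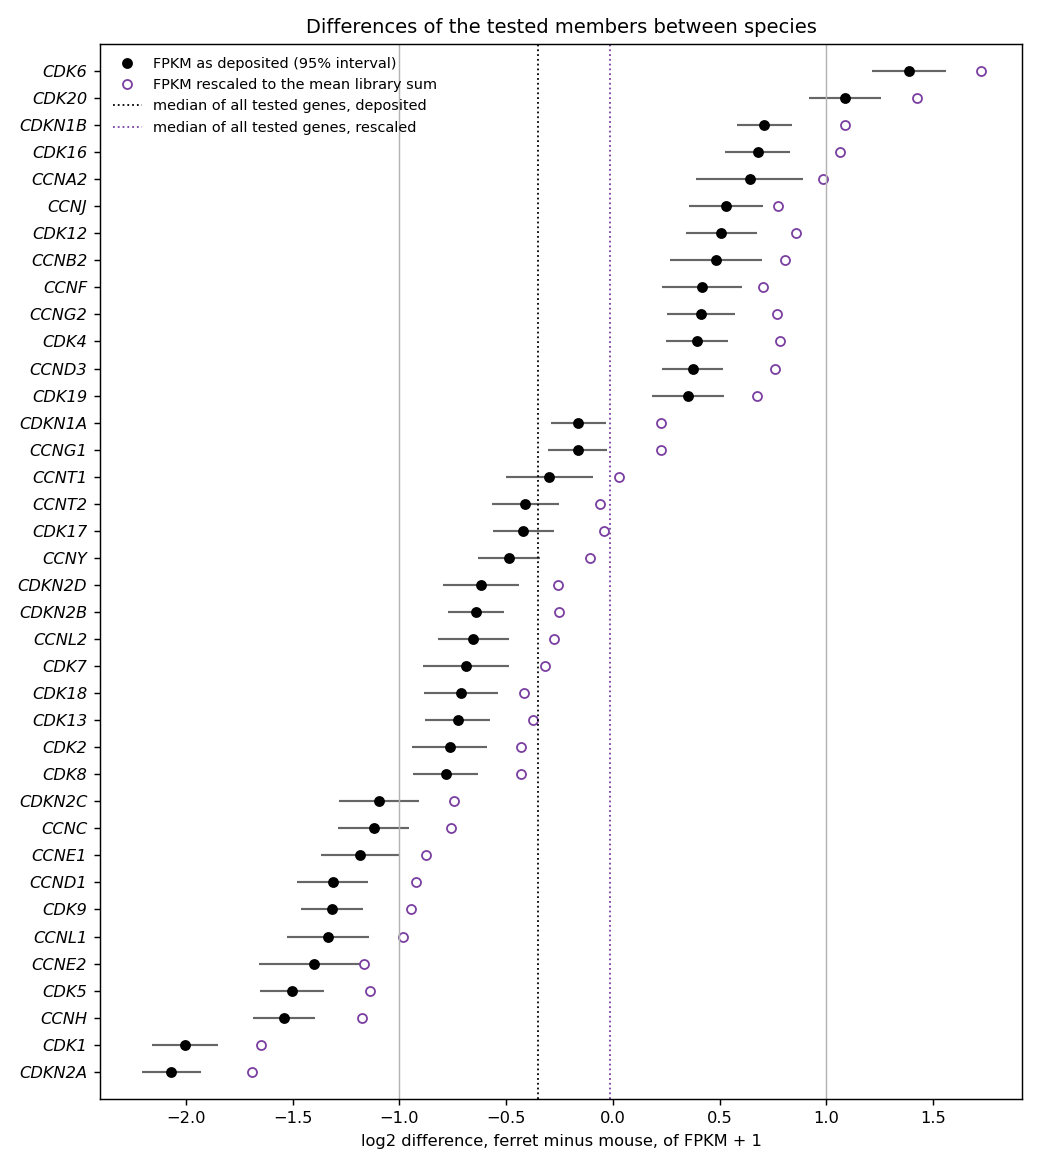
Log2 differences of FPKM + 1, ferret minus mouse, for 38 tested members on the horizontal axis, with FPKM as deposited (filled points, 95% intervals from limma) and after rescaling to the mean library sum (open points). Dotted lines mark the medians of all 10204 tested genes, grey lines mark differences of 1, and Ccnb3 and Ccno, listed at 0 in one species, are left out. Cdk1 and Cdkn2a lie farthest to the left and Cdk6 farthest to the right under both scalings.

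Among the D-type cyclins, which link growth factor signals to the cell cycle, Ccnd1 and Ccnd3 moved apart. Ccnd1 measured 138.3 and 158.8 FPKM in ferret astrocytes, against 362 and 377 FPKM in mouse astrocytes. It was the most abundant member in mouse astrocytes, and both ferret libraries lay below both mouse libraries. The log2 difference was -1.31 ± 0.074 (SE, adjusted p = 7.36e-08 by limma), and after rescaling it was -0.92, short of the call. Ccnd3 measured 108.5 and 119.7 FPKM in ferret astrocytes, against 88.1 and 87.4 FPKM in mouse astrocytes, a log2 difference of 0.37 ± 0.064 (SE), short of the call. Within a library, where the scaling of FPKM cancels, Ccnd1 stood at 1.27 and 1.33 times Ccnd3 in ferret astrocytes and at 4.11 and 4.31 times Ccnd3 in mouse astrocytes. This ratio of Ccnd1 to Ccnd3 differed between species by -1.70 on the log2 scale, which the scaling of the libraries does not affect but gene model lengths may. Mouse Ccnd1 lies on the minus strand of chromosome 7, from 144929931 to 144939925, and its exons overlap those of LTO1 on the opposite strand by 1100 bases. Exons of mouse Ccnd3 overlap those of Bysl on the opposite strand by 361 bases. Another D-type cyclin, Ccnd2, had 164.9 and 168.7 FPKM in the mouse libraries, above Ccnd3. No ferret value under that symbol was used here, so the sum over the D-type cyclins was not compared.

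The partner kinases of the D-type cyclins were both higher in the ferret libraries, Cdk6 past the limit of the call and Cdk4 short of it. Cdk6 measured 12.1 and 11.0 FPKM in ferret astrocytes, against 3.73 and 3.87 FPKM in mouse astrocytes. The ferret mean was 3.04 times the mouse mean, with a log2 difference of 1.39 ± 0.077 (SE, adjusted p = 6.56e-08 by limma) as deposited and 1.72 after rescaling. Mouse Cdk6 lies on the plus strand of chromosome 5, from 3341485 to 3531008, and an antisense gene overlaps its exons by 368 bases. Its exonic regions come to 13989 bases, the most of the members with a position. The length of the ferret gene model was not used here, so the part of gene length in the Cdk6 difference was not tested. Exons of mouse Cdk4 overlap those of Tspan31 on the opposite strand by 641 bases. Cdk4 was far more abundant than Cdk6 in both species, with 106.6 and 117.8 FPKM in ferret and 85.5 and 84.5 FPKM in mouse astrocytes, a log2 difference of 0.39 ± 0.064 (SE). Within a library, Cdk4 stood at 8.77 and 10.7 times Cdk6 in ferret astrocytes and at 22.9 and 21.8 times Cdk6 in mouse astrocytes. Ccnd1 stood at 1.30 and 1.35 times Cdk4 in ferret astrocytes and at 4.23 and 4.46 times Cdk4 in the mouse libraries. Gene model lengths may affect these ratios.

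The E-type cyclins, which bind CDK2 at the start of S phase, had lower values in ferret astrocytes. Ccne1 measured 2.63 and 2.28 FPKM in ferret astrocytes, against 7.05 and 6.64 FPKM in mouse astrocytes. The log2 difference was -1.18 ± 0.082 (SE, adjusted p = 3.42e-07 by limma), and after rescaling it was -0.87, short of the call. Ccne2 measured 0.994 and 0.565 FPKM in ferret astrocytes, against 3.84 and 3.500 FPKM in mouse astrocytes, a log2 difference of -1.40 ± 0.113 (SE). It was called as deposited and after rescaling, at -1.16, but not after quantile normalization, at -0.99. Both of its ferret values were under the limit of 1. Passing the filter through mouse alone already required a difference, so these calls are no separate evidence of one. Exons of mouse Ccne2, on chromosome 4 from 11191351 to 11204779, overlap those of Ints8 on the opposite strand by 609 bases. Cdk2, their kinase, measured 4.40 and 4.38 FPKM in ferret astrocytes, against 7.71 and 8.64 FPKM in mouse astrocytes, a log2 difference of -0.77 ± 0.078 (SE), short of the call.

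Ccna2, Ccnb2 and Ccnf, cyclins of S phase, G2 and mitosis, went the other way from cyclin E, although their differences stayed below the limit with FPKM as deposited. Ccna2, the cyclin A of dividing somatic cells, measured 8.07 and 10.7 FPKM in ferret astrocytes, against 5.74 and 5.49 FPKM in mouse astrocytes. Its log2 difference was 0.64 ± 0.111 (SE, adjusted p = 3.61e-04 by limma), 0.98 after rescaling and 1.05 after quantile normalization, where it was called. Exons of mouse Ccna2 overlap those of Exosc9 on the opposite strand by 510 bases. The ferret duplicates of Ccna2 differed by 0.369 on the log2(FPKM + 1) scale, the widest of the tested members on that scale. Ccnb2, a mitotic cyclin B, measured 5.48 and 6.29 FPKM in ferret astrocytes, against 4.29 and 3.58 FPKM in mouse astrocytes, a log2 difference of 0.48 ± 0.095 (SE). Ccnf, whose product is a subunit of a ubiquitin ligase and binds no CDK, measured 3.11 and 3.45 FPKM in ferret astrocytes, against 2.34 and 2.08 FPKM in mouse astrocytes, a log2 difference of 0.42 ± 0.083 (SE). In all 3 genes both ferret libraries lay above both mouse libraries, where 94.1% of all tested genes did not overlap in one direction or the other. Ccnb3, a cyclin B known mainly from meiotic cells, had 1.05 and 1.15 FPKM in ferret astrocytes and is listed at 0 in both mouse libraries. Its ferret level lay just above the limit of 1, and no fold is given.

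Cdk1, the kinase bound by the A- and B-type cyclins, was lower in ferret astrocytes, against the direction of Ccna2 and Ccnb2. It measured 5.95 and 5.88 FPKM in ferret astrocytes, against 27.9 and 25.6 FPKM in mouse astrocytes. The mouse mean was 4.52 times the ferret mean, with a log2 difference of -2.004 ± 0.069 (SE, adjusted p = 2.24e-09 by limma) as deposited, -1.65 after rescaling and -1.60 after quantile normalization. Mouse Cdk1 lies on the minus strand of chromosome 10, from 69335146 to 69352938, has 10 exonic regions of 4934 bases in all, and overlaps no exon of another annotated gene. The length of the ferret gene model was not used here, so the part of gene length in this value was not tested. Within a library, Ccna2 stood at 1.36 and 1.82 times Cdk1 in ferret astrocytes and at 0.206 and 0.214 times Cdk1 in mouse astrocytes. The ratio of Ccnb2 to Cdk1 was 0.922 and 1.07 in ferret and 0.154 and 0.1398 in mouse astrocytes. On the log2 scale the species differed by 2.90 in the first ratio and by 2.76 in the second, and neither depends on the scaling of the libraries. These pairs of genes were chosen after their values were seen. Cdk1 also stood at 1.35 and 1.34 times Cdk2 in ferret astrocytes and at 3.61 and 2.97 times Cdk2 in the mouse libraries.

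**Figure D2:**
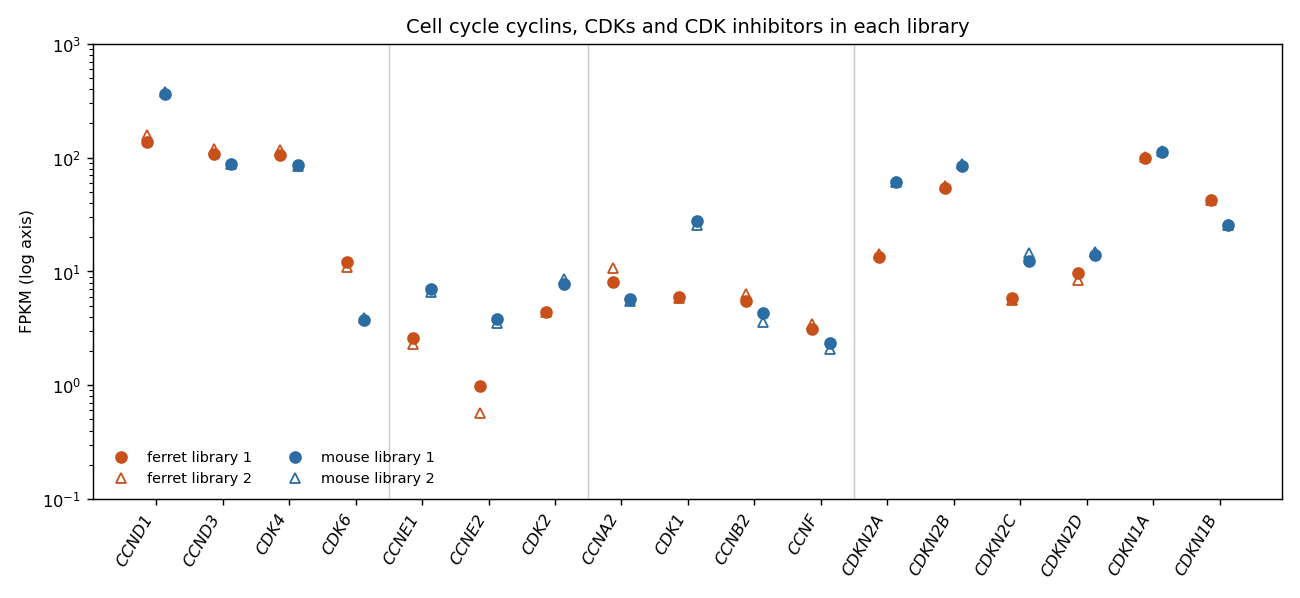
FPKM of 17 cyclins, CDKs and inhibitors of the cell cycle in each library on a log axis, with ferret libraries in orange and mouse libraries in blue. From left to right stand the D-type cyclins with CDK4 and CDK6, the E-type cyclins with CDK2, the cyclins and CDK of S phase, G2 and mitosis, and the inhibitors. Cdk1 lies at 5.95 and 5.88 FPKM in ferret against 27.9 and 25.6 FPKM in mouse, whereas Ccna2, Ccnb2 and Ccnf lie higher in ferret.

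All 4 INK4 inhibitors had lower values in ferret astrocytes, as did 62% of all tested genes, and 2 of them, Cdkn2a and Cdkn2c, were called, where 30.1% of all tested genes were. Cdkn2a, which encodes p16 and, in another reading frame, p19Arf, measured 13.4 and 14.3 FPKM in ferret astrocytes, against 61.7 and 60.8 FPKM in mouse astrocytes. The mouse mean was 4.42 times the ferret mean, a log2 difference of -2.07 ± 0.061 (SE, adjusted p = 8.38e-10 by limma) as deposited and -1.69 after rescaling. A value per gene does not tell the transcripts of the 2 products apart. Its neighbour Cdkn2b, which encodes p15, was the most abundant INK4 gene in both species and measured 54.0 and 56.7 FPKM in ferret astrocytes, against 85.4 and 88.0 FPKM in mouse astrocytes. Its log2 difference of -0.64 ± 0.058 (SE) was short of the call. In the mouse genome both lie on the minus strand of chromosome 4, Cdkn2a from 89274471 to 89294653 and Cdkn2b from 89306299 to 89311039, and neither shares exonic bases with another gene. Within a library, Cdkn2a stood at 0.248 and 0.252 times Cdkn2b in ferret astrocytes and at 0.722 and 0.691 times Cdkn2b in mouse astrocytes. Gene model lengths may affect this ratio. Exonic regions of mouse Cdkn2a come to 1172 bases, the fewest of the members with a position.

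Cdkn2c, which encodes p18, measured 5.87 and 5.64 FPKM in ferret astrocytes, against 12.5 and 14.5 FPKM in mouse astrocytes, a log2 difference of -1.10 ± 0.083 (SE, adjusted p = 6.79e-07 by limma). The call was lost after rescaling, at -0.75, and without mouse library 2, at -0.99. Cdkn2d, which encodes p19Ink4d, measured 9.64 and 8.38 FPKM in ferret astrocytes, against 13.9 and 14.7 FPKM in mouse astrocytes, a log2 difference of -0.62 ± 0.079 (SE), short of the call. Summed, the INK4 genes stood at 82.9 and 85.0 FPKM in ferret and at 173.5 and 178.0 FPKM in mouse astrocytes. After rescaling all 4 kept lower values in ferret astrocytes, but only Cdkn2a was called.

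The CIP/KIP inhibitors differed in direction from each other with FPKM as deposited. Cdkn1a, which encodes p21 and is a target of p53, measured 98.8 and 102.1 FPKM in ferret astrocytes, against 111.4 and 113.6 FPKM in mouse astrocytes. The log2 difference was -0.16 ± 0.056 (SE) as deposited and 0.23 after rescaling, so its direction depended on the scaling. Cdkn1b, which encodes p27 and restrains the cycle in resting cells, measured 42.4 and 42.6 FPKM in ferret astrocytes, against 25.8 and 25.5 FPKM in mouse astrocytes. The log2 difference was 0.71 ± 0.057 (SE), short of the call, and 1.09 after rescaling, where it was called. Within a library, Cdkn1a stood at 2.33 and 2.40 times Cdkn1b in ferret astrocytes and at 4.32 and 4.46 times Cdkn1b in mouse astrocytes. Mouse Cdkn1b lies on the plus strand of chromosome 6, from 134920401 to 134925513. Cdkn1c had 0.286 and 0.420 FPKM in the mouse libraries, under the limit, and its ferret level was not analysed here.

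**Figure D3:**
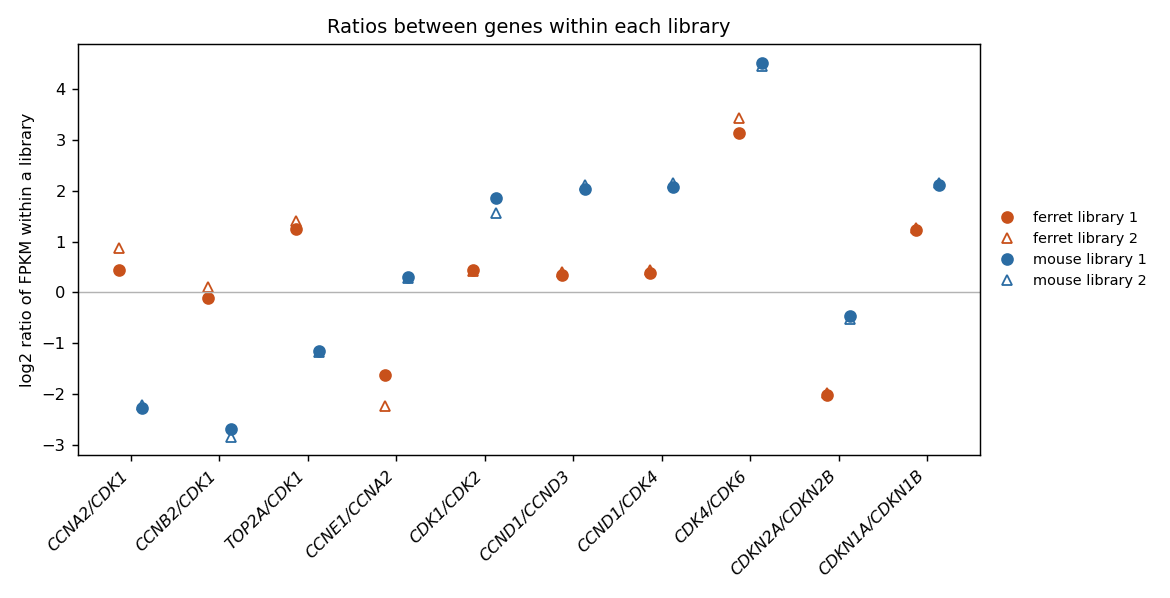
Log2 ratios of FPKM between pairs of genes within each library, with ferret libraries in orange and mouse libraries in blue. The scaling of a library cancels in each ratio, whereas gene model lengths do not. The ratios of Ccna2, Ccnb2 and Top2a to Cdk1 lie higher in both ferret libraries, and those of Ccne1 to Ccna2, Ccnd1 to Ccnd3 and Ccnd1 to Cdk4 lie lower.

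Cyclins and CDKs of transcription were measured as 12 genes, of which 4 were called lower in ferret astrocytes with FPKM as deposited (33.3%, close to the 30.1% of all tested genes). Ccnh, the cyclin of the CDK-activating kinase, which also belongs to the transcription factor TFIIH, measured 9.86 and 10.3 FPKM in ferret astrocytes, against 32.2 and 30.4 FPKM in mouse astrocytes. Its log2 difference was -1.54 ± 0.065 (SE, adjusted p = 8.89e-09 by limma) as deposited and -1.17 after rescaling, and it alone of the 12 was called under both. Cdk7, its kinase, measured 16.4 and 13.4 FPKM in ferret astrocytes, against 24.8 and 24.2 FPKM in mouse astrocytes, a log2 difference of -0.69 ± 0.089 (SE), short of the call. Mnat1, the assembly factor of the same complex, had 9.08 and 10.8 FPKM against 20.5 and 20.3 FPKM, a log2 difference of -0.97 ± 0.083 (SE), short of the call as deposited but past it without ferret library 2 (-1.09) and with a pseudocount of 0.1 (-1.03), and was named after its values were seen.

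Cdk9, the kinase that releases paused RNA polymerase II, measured 10.4 and 11.0 FPKM in ferret astrocytes, against 28.1 and 28.2 FPKM in mouse astrocytes, a log2 difference of -1.32 ± 0.064 (SE, adjusted p = 2.43e-08 by limma). Its cyclins Ccnt1 and Ccnt2 had smaller log2 differences of -0.30 and -0.41, and the values of Ccnt1 turned to 0.03 after rescaling. Ccnc, the cyclin of the Mediator kinase module, measured 8.31 and 7.87 FPKM in ferret astrocytes, against 17.8 and 19.8 FPKM in mouse astrocytes, a log2 difference of -1.12. Ccnl1, a cyclin tied to RNA splicing, measured 5.48 and 5.04 FPKM in ferret astrocytes, against 15.9 and 13.7 FPKM in mouse astrocytes, a log2 difference of -1.33. After rescaling, Cdk9, Ccnc and Ccnl1 stood at -0.95, -0.76 and -0.99 and were no longer called. Cdk12 and Cdk19 were the members of this set with higher ferret values, at log2 differences of 0.51 and 0.35, short of the call. The 12 genes had a median log2 difference of -0.71 as deposited and -0.35 after rescaling, against -0.35 and -0.01 for all tested genes.

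The remaining members act outside the classical cycle. Cdk20, a kinase linked to cilia, measured 9.68 and 10.2 FPKM in ferret astrocytes, against 3.998 and 4.30 FPKM in mouse astrocytes, a log2 difference of 1.09 ± 0.074 (SE, adjusted p = 3.14e-07 by limma) as deposited and 1.42 after rescaling. Cdk5, which is best known from neurons and needs the activators p35 or p39, measured 8.43 and 9.19 FPKM in ferret astrocytes, against 26.8 and 26.8 FPKM in mouse astrocytes, a log2 difference of -1.504 ± 0.067 (SE, adjusted p = 1.35e-08 by limma). Its activator gene Cdk5r1 had means of 2.31 FPKM in ferret and 1.49 FPKM in mouse astrocytes, a log2 difference of 0.41, short of the call. Ccno, a cyclin of multiciliated cells, is listed at 0 in both ferret libraries and had 1.45 and 1.79 FPKM in the mouse libraries. Cdk16 measured 74.0 and 82.7 FPKM in ferret astrocytes, against 47.7 and 49.4 FPKM in mouse astrocytes, a log2 difference of 0.68 that became 1.06 and was called after rescaling. Ccng1, a target of p53, was the most abundant member in ferret astrocytes, at 170.5 and 184.0 FPKM against 199.8 and 197.8 FPKM in the mouse libraries. Its log2 difference was -0.17 as deposited and 0.22 after rescaling. The other members here, Ccng2, Ccnj, Ccny, Cdk17 and Cdk18, had log2 differences from -0.71 for Cdk18 to 0.53 for Ccnj and were not called.

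By level, Ccng1, Ccnd1, Ccnd3, Cdk4 and Cdkn1a stood among the most abundant members in both species, in different order. In ferret astrocytes Ccng1 (177 ± 9.49 FPKM, SD, n = 2) stood first, followed by Ccnd1 (148.6 ± 14.6, SD, n = 2), Ccnd3 (114.1 ± 7.89, SD, n = 2), Cdk4 (112.2 ± 7.92, SD, n = 2) and Cdkn1a (100.5 ± 2.36, SD, n = 2). Ccnd3 stood slightly above Cdk4 in each ferret library, at 108.5 against 106.6 FPKM and at 119.7 against 117.8 FPKM. This gap was smaller than the spread of either gene between the duplicates, and gene model lengths may affect it. In mouse astrocytes Ccnd1 (370 ± 10.7 FPKM, SD, n = 2) stood first, followed by Ccng1 (198.8 ± 1.38, SD, n = 2), Cdkn1a (112.5 ± 1.52, SD, n = 2), Ccnd3 (87.8 ± 0.459, SD, n = 2), Cdkn2b (86.7 ± 1.81, SD, n = 2) and Cdk4 (85.0 ± 0.755, SD, n = 2), and the last 3 lay within a few FPKM of each other.

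Genes that act with the members were taken from 5 lists, whose medians and counts stand beside those of all tested genes (13.1% higher, 30.1% lower, median -0.35). Of 21 matched genes of mitosis and proliferation, 2 were called higher and 0 lower in ferret astrocytes. By the adjusted p of limma alone 12 were higher and 5 lower, where 32.4% of all tested genes were higher and 56.2% lower. Their median log2 difference was 0.46 as deposited and 0.75 after rescaling, where 6 of 21 were called higher (28.6%, against 19.1% of all tested genes). Aurka, a kinase of the mitotic spindle poles, measured 8.55 and 9.89 FPKM in ferret astrocytes, against 3.32 and 2.75 FPKM in mouse astrocytes, a log2 difference of 1.34 ± 0.096 (SE, adjusted p = 4.58e-07 by limma). Cenpf, a kinetochore protein of G2 and M phase, measured 3.98 and 4.62 FPKM in ferret astrocytes, against 1.19 and 1.53 FPKM in mouse astrocytes, a log2 difference of 1.17 ± 0.098 (SE, adjusted p = 1.47e-06 by limma). Top2a, the topoisomerase of dividing cells, measured 14.0 and 15.5 FPKM in ferret astrocytes, against 12.5 and 11.3 FPKM in mouse astrocytes, a log2 difference of 0.29 ± 0.077 (SE), short of the call. Within a library Top2a stood at 2.36 and 2.64 times Cdk1 in ferret astrocytes and at 0.450 and 0.441 times Cdk1 in mouse astrocytes. Birc5 and Mad2l1 of the same list lay on the side of Cdk1, at log2 differences of -0.90 and -0.99, short of the call as deposited. With a pseudocount of 0.1 both were called lower, at -1.03 and -1.15, and Mad2l1 also without ferret library 1 (-1.04) or mouse library 1 (-1.04). Both were named after their values were seen. The symbol of Ki67, Mki67, was among 7 of the list that were not matched, and it was not analysed here.

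The CDK activators, partners and removal factors had 7 of 19 called higher (36.8%, against 13.1%) and 3 lower (15.8%, against 30.1%). The list was not split by whether a gene raises or lowers CDK activity, so these counts give no direction of that activity. Cables1, which encodes a protein that binds CDKs, measured 19.3 and 20.2 FPKM in ferret astrocytes, against 2.04 and 1.92 FPKM in mouse astrocytes, a log2 difference of 2.80 ± 0.072 (SE, adjusted p = 3.49e-10 by limma). Cdk2ap1, named for its binding to CDK2, measured 319 and 346 FPKM in ferret astrocytes, against 50.1 and 53.5 FPKM in mouse astrocytes, a log2 difference of 2.66 ± 0.065 (SE, adjusted p = 2.61e-10 by limma). Cks1b, a small CDK-binding protein needed for the removal of p27, measured 69.4 and 70.8 FPKM in ferret astrocytes, against 16.9 and 18.6 FPKM in mouse astrocytes, a log2 difference of 1.93 ± 0.065 (SE, adjusted p = 2.00e-09 by limma). In the 3 genes the ferret libraries lay well above the mouse libraries, and all 7 genes called higher were called after rescaling too. One of the 7, Ccnjl, named after its values were seen, had a mean of at least 1 FPKM in ferret alone, so that passing the filter required a difference, and without it 6 of 18 genes were called higher. Ccnjl also fell below the limit of 1 without ferret library 1 (0.96) or mouse library 2 (0.96). Another of the 7, Cables2, named after its values were seen, fell below that limit without ferret library 2 (0.93). The 3 genes called lower, Cdc25a, Ccndbp1 and Cdc37, had log2 differences of -1.09, -1.22 and -1.20 as deposited and were not called after rescaling, at -0.83, -0.85 and -0.81. They were named after their values were seen. Skp2, the ubiquitin ligase subunit that binds p27 together with CKS1, had a log2 difference of 1.05 and was named after its values were seen. The remaining gene called higher, Cdkn3, had a log2 difference of 1.53 and was also named after its values were seen. The median of the list was -0.10 as deposited and 0.24 after rescaling.

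The retinoblastoma, E2F and DREAM genes, which hold and release the transcription of cell cycle genes, had 2 of 18 called higher (11.1%) and 3 called lower (16.7%), with a median of -0.25. The median turned to 0.11 after rescaling, with 2 called higher and 1 lower, and to 0.16 after quantile normalization, with 4 higher and 1 lower. Rb1 measured 6.11 and 5.89 FPKM in ferret astrocytes, against 3.87 and 3.15 FPKM in mouse astrocytes, a log2 difference of 0.64 ± 0.091 (SE), short of the call. After quantile normalization Rb1 stood at 1.07 and was called higher. E2f1, an activator of S phase genes including Ccne1, measured 4.38 and 4.37 FPKM in ferret astrocytes, against 9.75 and 9.99 FPKM in mouse astrocytes, a log2 difference of -1.02 ± 0.070 (SE, adjusted p = 3.30e-07 by limma), and -0.68 after rescaling, where it was not called. E2f6, a repressor of the family, measured 4.08 and 4.22 FPKM in ferret astrocytes, against 25.8 and 26.1 FPKM in mouse astrocytes, a log2 difference of -2.39, and Lin52 of the DREAM complex, named after its values were seen, stood at -1.23 as deposited and at -0.87 after rescaling, where it was not called. Mybl2, which drives genes of G2 and M phase, measured 6.19 and 6.82 FPKM in ferret astrocytes, against 1.45 and 1.79 FPKM in mouse astrocytes, a log2 difference of 1.52 ± 0.090 (SE, adjusted p = 1.04e-07 by limma). E2f8, another repressor, was higher as well, at 1.44, whereas Foxm1, which acts with Mybl2, had 1.90 and 2.35 FPKM against 4.09 and 3.33 FPKM, a log2 difference of -0.59, short of the call.

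Of the 14 S phase genes, 0 were called higher and 1, Gmnn, was called lower, with a median of -0.10, and by the adjusted p of limma alone 6 were higher and 5 lower (32.4% and 56.2% of all tested genes). After rescaling 3 were called higher (21.4%, against 19.1% of all tested genes) and 1 lower, with a median of 0.23, and after quantile normalization 4 were higher and 1 lower, with a median of 0.33. Gmnn, which encodes the replication licensing inhibitor geminin, measured 1.12 and 1.16 FPKM in ferret astrocytes, against 8.46 and 7.69 FPKM in mouse astrocytes, a log2 difference of -2.08 ± 0.079 (SE, adjusted p = 4.42e-09). Pcna, the sliding clamp of DNA polymerase, measured 84.1 and 84.0 FPKM in ferret astrocytes, against 48.7 and 46.7 FPKM in mouse astrocytes, a log2 difference of 0.81 ± 0.057 (SE), short of the call, and 1.19 after rescaling. Among 12 other targets of p53, 1 was called higher and 4 lower, with a median of -0.42. The lower genes were Perp, an apoptosis effector, at -4.56, Aen, a nuclease, at -1.89, and the stress genes Sesn1 and Sesn2 at -1.16 and -1.01, and the higher one was Gadd45a at 1.05; Sesn2 and Gadd45a were named after their values were seen. After rescaling 1 gene of this list was called higher and 2 lower, with a median of -0.04, and Sesn1 and Sesn2 stood at -0.79 and -0.65 and were not called. Sesn2 at -0.95 and Gadd45a at 0.95 also fell short of the call without ferret library 1, as did Sesn2 without mouse library 2, at -0.9985.

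**Figure D4:**
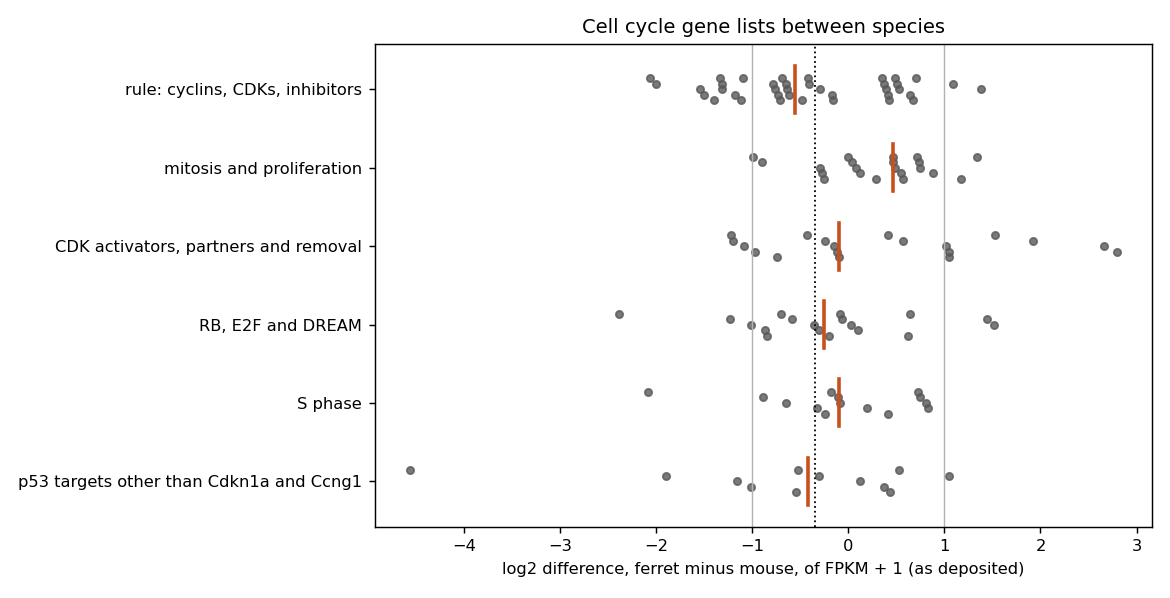
Log2 differences of FPKM + 1, ferret minus mouse, as deposited, for the tested cyclins, CDKs and inhibitors and for 5 lists of genes that act with them; each point is a gene, leaving out Ccnb3 and Ccno, and orange bars are medians. The dotted line is the median of all tested genes, -0.35, and grey lines mark differences of 1. The median of the mitosis list lies at 0.46, and those of the other lists between -0.42 and -0.10.

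RNA of other cells moved with the species in the same libraries, and in whole cultures fewer cells of a type and less RNA per cell cannot be told apart. By staining of replated cultures with serum, the study counted mostly astrocytes in both species. It found a larger share of microglia in mouse cultures and a few neurons in ferret cultures alone. The RNA came from cultures without serum. All 10 astrocyte markers had values in both species, and their sum was 3576 and 3674 FPKM in ferret and 3258 and 3530 FPKM in mouse astrocytes. By the same call, 1 of the 10 was higher and 6 were lower in ferret astrocytes as deposited (13.1% and 30.1% of all tested genes), and 2 were higher and 4 lower after rescaling (19.1% and 21.7%). Gfap measured 1481 and 1522 FPKM in ferret and 1429 and 1546 FPKM in mouse astrocytes, whereas Slc1a2, an astrocyte glutamate transporter, was the one marker under 1 FPKM in ferret, at 0.133 and 0.178 FPKM against 47.1 and 51.8 FPKM. All 14 matched microglial markers were called lower in ferret astrocytes, 11 of which passed the filter through mouse alone, with sums of 11.2 and 10.3 FPKM in ferret and 785 and 761 FPKM in mouse astrocytes. Their most abundant genes were Tmem119 in ferret and, in mouse, Tyrobp at 148.8 FPKM in one library and C1qc at 144.9 FPKM in the other. Cx3cr1 was listed at 0 in both ferret libraries, Itgam and P2ry12 in one each. Of the 10 fibroblast markers, 9 were called lower in ferret astrocytes, 4 of which passed the filter through mouse alone, with sums of 145.2 and 132.9 FPKM in the ferret libraries, led by Col1a2, and 1625 and 1600 FPKM in the mouse libraries, led by Serpinf1. Of the 11 oligodendrocyte lineage markers 9 were tested, 3 of them passing the filter through ferret alone, and 4 were called higher in ferret astrocytes as deposited and 6 after rescaling, with sums of 170.4 and 189.7 FPKM in the ferret libraries against 69.5 and 69.6 FPKM in the mouse libraries, all led by Cnp, and Mog was listed at 0 in one mouse library. Of the 8 neuronal markers 5 were tested, 3 of them passing the filter through ferret alone, and 4 were called higher in ferret astrocytes. Sums of the 8 were 32.7 and 33.8 FPKM in ferret against 32.6 and 33.7 FPKM in mouse astrocytes, all led by Map2. Map2 itself was the tested marker with lower ferret values, with means of 18.9 FPKM in ferret and 30.8 FPKM in mouse astrocytes. Its log2 difference was -0.68, short of the call. Rbfox3 was listed at 0 in 1 ferret library. Of the 8 endothelial markers 3 were tested and called lower, all of which passed the filter through mouse alone, with sums of 0.600 and 0.586 FPKM in the ferret libraries, led by Flt1, against 28.9 and 29.3 FPKM in the mouse libraries, led by Cdh5. Pecam1, Cdh5 and Tek were listed at 0 in both ferret libraries, Esam and Cldn5 in one each, and Cldn5 in both mouse libraries. A marker that passed the filter through one species alone had to differ, so these counts are a description. The part of these cells in the differences of cyclins, CDKs and inhibitors was not tested.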

How the data were processed

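Expression was measured by RNA-seq in 4 libraries, 2 of ferret and 2 of mouse astrocytes, grouped by the sample labels. The authors prepared stranded, polyA-selected libraries, aligned ferret and mouse reads to the respective genome (Ensembl annotation) with STAR, version 2.7.0f in the submitters' processing notes, and deposited FPKM per gene from Cufflinks (version 2.2.1). The files used here hold FPKM only, and the read counts and gene lengths that the study lists elsewhere were not used here, so no depth or counting interval is given. Symbols were matched in upper case, and where a symbol had several values (7 ferret and 13 mouse symbols, none a member) the value of highest mean was taken. Species were compared with limma (version 3.58.1, R 4.3.3, empirical Bayes with trend) on log2(FPKM + 1), a scale that understates the changes of low genes, for genes with a mean of at least 1 in one species. A fit on simulated data for the 10204 genes, with 200 changed by 1.5 on the log2 scale, called 99.5% of them and 0 unchanged genes. Its noise was drawn from the spread of the duplicates, and every change lay above the limit of 1. No shift of scaling or gene models between species was simulated, so it checks the running of the fit and not the calls in these data. Members and lists were chosen with earlier results of these data known. Named were all called members, the classical cell cycle members, the 3 called genes of largest difference in each list and a few fixed genes such as Top2a and Pcna. Within-library ratios were chosen after the values were seen. Mouse positions are from GENCODE vM21, a release other than the authors' Ensembl annotation, on GRCm38. Of the 43 members 42 had a position there, and exons of 9 overlap those of another protein-coding gene. Whether Cufflinks used strand is not given in the sources used here. As alternatives, the pseudocount was set to 0.1, the filter was dropped, libraries were rescaled to the mean sum or quantile normalized, and fits were made with a replicate block, with summed or first values of a symbol, without trend and without each library in turn. The named Mki67 was not analysed here.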

Additional observations from a re-analysis of the deposited data

How the results depend on the processing

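Scaling between the libraries changed the counts of members called. The count of cyclins, CDKs and inhibitors called higher in ferret astrocytes was 3 as deposited, 5 after rescaling to the mean library sum and 6 after quantile normalization, and the count called lower was 12, 6 and 5. Of all tested genes, 1336 were higher and 3069 lower as deposited, 1954 and 2215 after rescaling, and 2080 and 2082 after quantile normalization. The median of the members was -0.55 as deposited, -0.18 after rescaling, -0.15 after quantile normalization and -0.42 without the filter on low values. The direction turned for Ccng1 (0.22 after rescaling, 0.25 after quantile normalization), Cdkn1a (0.23 and 0.20), Ccnt1 (0.0304 and 0.0995) and, after quantile normalization, Ccnt2 (0.0233). With each library left out in turn, 3 members were higher and 11 to 12 lower, the median lay between -0.54 and -0.53, and all tested genes gave 1316 to 1372 higher and 3049 to 3095 lower; the lone library of a species was then assumed to vary like those of the other. Blocking on the replicate number of the labels left the member counts at 3 higher and 12 lower and gave 1342 and 3072 of all tested genes. The numbers come from the labels alone, and deviations of same-numbered libraries correlated at 0.01 across genes, which are not independent replicates. Gfap, at 0.01 as deposited, lay between -0.0418 and 0.0717 with a library left out and stood at 0.41 after rescaling and 0.72 after quantile normalization, and the named genes of the 5 comparison lists kept their direction under the alternatives run. The pseudocount of 0.1, the summed or first value of a symbol and a fit without trend left the member counts at 3 and 12, although the pseudocount gave 1579 higher and 3433 lower among all tested genes and moved Ccne2 from -1.40 to -2.14. FPKM alone sets no depth limit for low genes such as Ccne2, Ccnb3 and Ccno, and read counts were not used here.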

Other observations

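Symbols of the same families that stood in only one species entered no comparison. In the mouse libraries Ccnb1, the main mitotic cyclin B, had 5.19 and 4.92 FPKM, close to its relative Ccnb2. Ccni, an atypical cyclin, had 58.0 and 59.6 FPKM, Ccnk, the cyclin of CDK12 and CDK13, had 9.29 and 9.98 FPKM, Cdk11b, a kinase of transcription and splicing, had 34.1 and 32.4 FPKM, and Cdk14 had 22.0 and 22.6 FPKM. In the ferret libraries Cdk10 had 4.90 and 4.72 FPKM. The levels of these genes in the other species were not analysed here.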
